A study of Mus musculus with 3 samples.

Results

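The insulin-like growth factor (IGF) axis was described through 9 genes, the ligand Igf1, the receptor Igf1r and the binding protein genes Igfbp1 to Igfbp7, taken by the gene name that the array design gives each probe. They were 9 of 30175 gene names on the array and were read by 15 of its 39429 probes, each printed as 1 spot. The imprinted genes Igf2 and Igf2r, which supply the other ligand and its clearance receptor, were read beside them. RNA came from mouse embryoid bodies, rounded clusters that embryonic stem cells form when they float and differentiate, after 10 days of culture in suspension with LIF, a self-renewal cytokine, left out. The wild-type controls were compared with the genotype labelled Dido3deltaCT+HADidoNT, whose Dido3 protein lacks its C-terminal end and which also overexpresses an HA-tagged N-terminal region of Dido with the PHD finger. Of each genotype 3 biological replicates were cultured in parallel, and each of 3 two-colour arrays carried 1 RNA of each genotype. The mutant was labelled with Cy3 on arrays 1 and 3 and with Cy5 on array 2. The sources used here name neither the strain of the cells nor the number of mutant clones.

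IGF1 and IGF2 are small secreted hormones that drive growth through the receptor tyrosine kinase IGF1R, which signals through PI3K and AKT and through RAS and MAP kinases. The IGF-binding proteins hold the ligands outside the cell; they can keep them from the receptor or carry them, and proteases release the ligand again. IGF2R has no kinase and takes IGF2 to the lysosome, and in the embryo it lowers the supply of that ligand. In mouse embryos Igf2 is abundant in the yolk sac and mesoderm, and Igfbp1 is known as a liver gene that insulin represses.

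An array value belongs to the short stretch of RNA under a probe, so stretches of the probes that differed within 1 gene are shown first, 5′ to 3′. Each Igf1 and Igfbp3 line gives the first 30 of 60 bases, with the position of the probe in its transcript. Capitals mark bases that the Igf1 probe at 909 shares with the Igf1 probe at 889, which overlaps it by 40 bases, so these probes are not independent readings.
Igf1 at 909: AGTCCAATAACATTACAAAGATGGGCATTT
Igf1 at 1027: aaccattaaaaacatgccaccaagaccttc
Igf1 at 3252: agaaatgtaaatggaataagaggtcagctg
Igf1 at 6909: ctcctgattgtatttgaagtggttattcaa
Igfbp3 at 1389: ggagaacctggcatatttggtttctgaatt
Igfbp3 at 1882: gcagttttccaaaaacacagatttcttttc
The Igf1 probes at 889, 909, 3252 and 6909 belong to one transcript (NM_010512), and the probe at 1027 to another (NM_184052). In the mm9 coordinates of the files the Igf1 probes start on chromosome 10 at 87393561, 87393581, 87395924 and 87399581, and the one of the other transcript at 87378456. The Igfbp3 probe at 1882 (NM_008343) lies on chromosome 11 at 7106594 to 7106653, and the probe at 1389, designed to ENSMUST00000135887, at 7107949 to 7108008. Exons and UTRs under the probes were not assigned, since a matching annotation was not used here.

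One of the Igfbp2 probes is shown whole because it reads the end of the coding sequence. It has an open frame of 57 bases that ends in the stop codon, in capitals.
Igfbp2 at 958: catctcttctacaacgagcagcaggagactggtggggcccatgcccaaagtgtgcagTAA

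The 9 genes include neighbours that face each other tail to tail. In RefSeq's GRCm38.p6 positions Igfbp2 (plus strand) and Igfbp5 (minus strand) lie 5590 bases apart on chromosome 1, and Igfbp1 (plus) and Igfbp3 (minus) 3539 bases apart on chromosome 11. The promoter windows of the second pair, 250 bases before to 50 after the annotated start, are shown in the direction of the gene. This pair was picked because on array 3 Igfbp1 was lower in the mutant while Igfbp3, by its tested probe, was higher. Both were higher on arrays 1 and 2, and the difference between the genes was not tested. Windows came from RefSeq, GRCm38.p6, which held all 9 genes.
Igfbp1, chr11:7197537-7197836, plus strand: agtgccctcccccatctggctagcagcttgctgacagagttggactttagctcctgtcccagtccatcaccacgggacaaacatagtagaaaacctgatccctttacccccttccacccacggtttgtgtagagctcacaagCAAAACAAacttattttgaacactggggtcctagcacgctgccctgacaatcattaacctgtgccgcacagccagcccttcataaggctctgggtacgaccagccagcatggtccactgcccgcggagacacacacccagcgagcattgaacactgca
Igfbp3, chr11:7213874-7214173, minus strand: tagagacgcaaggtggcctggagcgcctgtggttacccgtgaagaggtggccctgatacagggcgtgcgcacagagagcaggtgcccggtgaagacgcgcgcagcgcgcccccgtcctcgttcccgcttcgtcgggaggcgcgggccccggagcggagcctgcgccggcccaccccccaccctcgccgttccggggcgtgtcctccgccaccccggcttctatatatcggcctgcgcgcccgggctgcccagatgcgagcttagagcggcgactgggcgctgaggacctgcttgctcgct
Capitals mark CAAAACAA, the core of the insulin response element for which the Igfbp1 promoter is known, at 108 bases before the start of Igfbp1. It was searched on both strands and occurred in 2.51% of all 32851 windows. No window of the other 8 members held it. A GC box (GGGCGG, 35.7% of windows) was found for Igf1r, Igfbp2 and Igfbp7, and an E-box (CACGTG, 7.15%) for Igfbp2. The letters of a TATA box (TATAAA, 13.6%) were found for Igfbp4 and Igfbp6. The Igfbp4 match lies on the strand of the gene, close before the start. The Igfbp6 match lies on the opposite strand and farther upstream, and is not read here as a TATA box. Variants of these letters were not searched, so a window without a match, such as that of Igfbp3, may still hold one. An exact match to the HNF1 palindrome, 13 letters long, occurred in 0.00913% of windows and in none of the members. Such a match is so rare that its absence says little, and sites with mismatches were not searched. The Igfbp3 window held 71.7% G and C with 37 CpG, and the Igfbp1 window 54.3% with 8. These matches are letters in a window and say nothing of binding.

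Each ratio is the log2 of mutant divided by wild type, so a value above 0 means more signal in the mutant. Means carry the SD of the n = 3 arrays, and levels are normalised log2 intensities of each genotype. A probe counted as called when its Benjamini-Hochberg adjusted p in limma was under 0.05. Probes were kept for testing where 1 genotype, the same on all 3 arrays, or both read well above background on every array, which left 25494. Local background exceeded 100 units at 25 spots of array 2, with a maximum of 75739, and peaked at 60 on the other arrays. It was therefore limited to 100 units before correction. Values without the limit are given for called Igfbp3, Igf2r, Igf2bp1 and Dido1 probes, which lost their calls. They are also given for some other probes whose reading on array 2 changed. Without the limit the log2 ratios of array 2 had an SD of 0.47 in place of 0.79.

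The targeted gene and markers of cell types set the background of the comparison. Of 4 Dido1 probes, the ones at transcript positions 1554 and 3419 rose (2.35 ± 0.40 and 3.03 ± 0.34), the one at 4505 fell (-3.60 ± 0.17), and the one at 7996 was at -0.54 ± 0.93. Without the background limit the first 3 read 0.42, 0.43 and -1.24 on array 2, and their calls were lost (1.83 ± 1.25, 2.27 ± 1.61 and -2.83 ± 1.38, adjusted p = 0.296, 0.300 and 0.229). The positions count along different transcripts: 1554 and 4505 in NM_011805, 3419 in NM_177852 and 7996 in NM_175551. In mm9 the probe at 3419 starts at 180405604 on chromosome 2, downstream of the probe at 4505 (180415861), on the minus strand. Added and endogenous transcripts were not separated by these probes. Median ratios of marker lists on arrays 1, 2 and 3 were 3.40, 1.03 and 2.02 for 14 visceral endoderm and yolk sac genes and 1.77, 1.51 and 1.06 for 8 mesenchyme genes. They were 1.71, 3.80 and 2.72 for 8 cardiac genes, 1.33, 1.13 and 0.52 for 8 endothelium genes and 1.55, 0.80 and 0.46 for 6 primitive blood genes. They were -3.08, -0.57 and -2.93 for 7 neural genes, -1.03, -1.31 and -1.76 for 7 parietal endoderm genes and -2.21, -1.81 and 0.81 for 8 pluripotency genes. Alb, Col1a1 and Postn did not pass the filter. In whole embryoid bodies, fewer cells of a type and less RNA per cell cannot be told apart.

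Of the 15 probes, 13 passed the filter, and all 13 were well above background in both genotypes on every array. They read 8 of the 9 genes. One of the 13, the Igfbp3 probe at 1882, was called, as higher, against 2.6% of all kept probes in either direction and 1.92% as higher, and a single called probe gives no share to read. An unadjusted p under 0.05 was reached by 6 of the 13, against 21%, with 5 higher (12.6%) and Igf1r lower (8.43%). The median ratio of the 13 was 0.14, against -0.01 over all kept probes. Their median SD over the arrays was 0.63, against 0.39 over all kept probes. It lay within the quartiles of the kept probes, 0.22 and 0.65. One sign on all 3 arrays was seen for 8 of the 13, against 42.9% of kept probes. The 5 higher were 3 Igf1 probes, Igfbp3 and Igfbp4, against 23%, and the 3 lower were Igf1r and both Igfbp2 probes, against 19.9%. Levels of the genotypes did not overlap for 6 of the 13, against 22.5%, with 4 higher (13.4%) and 2 lower (9.16%). The same 3 Igf1 probes enter each of the counts of 5, 6 and 8, so the genes behind them are fewer.

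**Figure D1:**
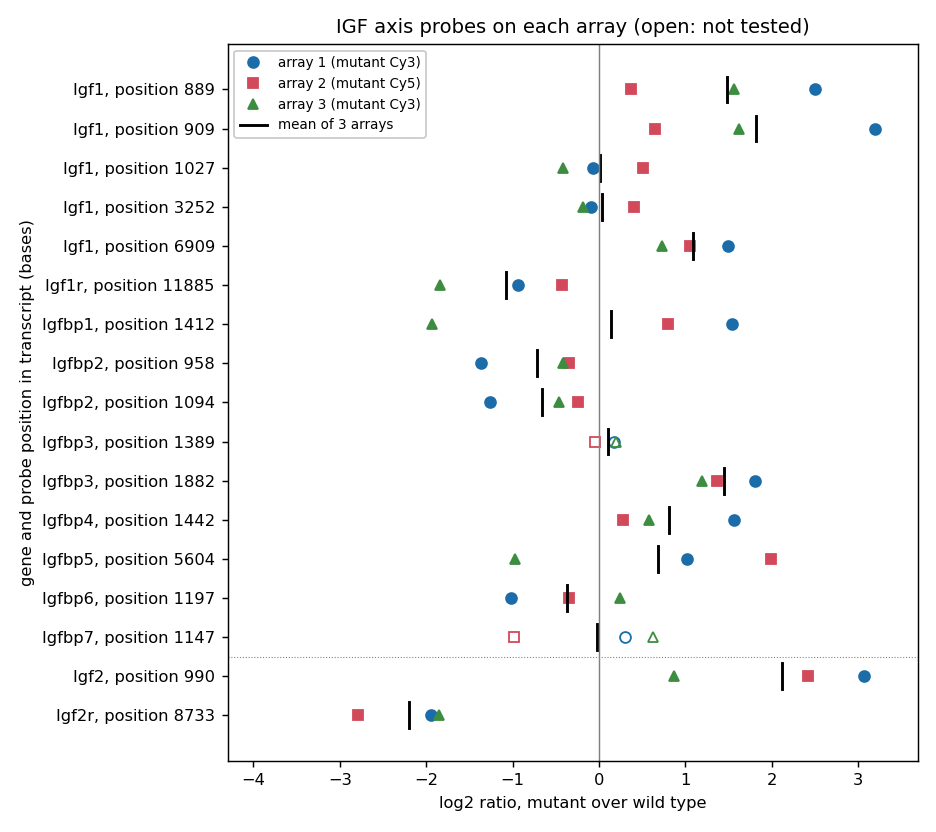
Log2 ratio of mutant over wild type (horizontal axis) of each of the 15 member probes and of Igf2 and Igf2r below the dotted line (vertical axis), 1 symbol per array, with the mean as a black bar and open symbols for probes that were not tested. The Igfbp3 probe at 1882 lies between 1.19 and 1.80, while Igfbp1 and Igfbp5 lie on both sides of 0.

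Igf1, the ligand, was higher in the mutant by the probes at 889, 909 and 6909 on every array, with none called, and near 0 by the others. The probe at 909 was at a level of 10.87, 10.21 and 10.04 in the mutant and 7.68, 9.56 and 8.41 in wild type on arrays 1, 2 and 3. Every mutant level was above every wild-type level, and the wild-type RNA of array 2 was the highest of its group. Its ratio was 3.19, 0.64 and 1.63, or 1.82 ± 1.29 (adjusted p = 0.143; 95% interval 0.49 to 3.15). The overlapping probe at 889 read 2.50, 0.37 and 1.56, or 1.48 ± 1.07 (adjusted p = 0.155). Without the background limit array 2 read 0.35 at 909 and 0.12 at 889.

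The probe at 6909, near the 3′ end of the long transcript, read 1.50, 1.06 and 0.73, or 1.09 ± 0.38 (adjusted p = 0.0842). Its levels were 8.19, 8.64 and 8.28 in the mutant and 6.70, 7.58 and 7.54 in wild type, again without overlap. Without the background limit its array 2 read 0.17. The probe at 3252 lies between these in the same transcript and read -0.09, 0.40 and -0.19, or 0.04 ± 0.32 (adjusted p = 0.941; 95% interval -0.51 to 0.60). It was dim, with spot intensities of 122 to 243 units over a local background near 40. Wild-type spots of the rising probes were also dim, with 71, 187 and 202 units at 6909 and 80 units at 889 on array 1. The probe of the other transcript, at 1027, read -0.06, 0.51 and -0.41, or 0.01 ± 0.47 (adjusted p = 0.987). The levels of the genotypes overlapped for the probes at 3252 and 1027. Without the background limit array 2 read 0.04 at 3252 and 0.10 at 1027. The probes of Igf1 therefore disagreed by over 2-fold within 1 transcript on arrays 1 and 3, which both carry the mutant in Cy3. On array 2 the probes at 889, 909, 3252 and 6909 lay closer, at 0.37, 0.64, 0.40 and 1.06. The difference between probes was not tested. Without replicate 2 the probes at 889, 909 and 6909 were called, at 2.03, 2.41 and 1.11, from arrays that both carry the mutant in Cy3. In that fit 7186 of the 25494 kept probes were called. Without replicate 1 the probes at 889 and 909 were at 0.97 and 1.14, with neither called. A dye term in the fit called the probes at 889 (adjusted p = 0.0471) and 6909 (adjusted p = 0.0442), and not the one at 909 (adjusted p = 0.0641). With that term 3900 of the 25494 kept probes were called.

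**Figure D2:**
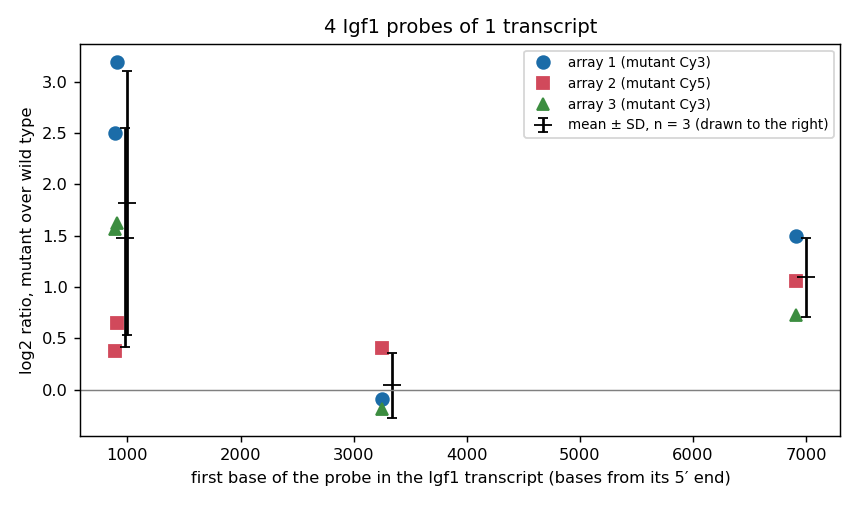
Log2 ratio of mutant over wild type (vertical axis) against the position of the probe in the Igf1 transcript NM_010512 in bases (horizontal axis), 1 symbol per array, with mean ± SD drawn just to the right. The overlapping probes at 889 and 909 lie between 0.37 and 3.19, the probe at 3252 between -0.19 and 0.40, and the probe at 6909 between 0.73 and 1.50.

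Igf1r, the signalling receptor, was lower in the mutant on every array and was not called. Its 1 probe, at 11885 in the transcript (mm9 chromosome 7, 75378461 to 75378520), was at a level of 11.08, 11.33 and 11.41 in the mutant and 12.02, 11.76 and 13.25 in wild type. The groups did not overlap, and the wild-type RNA of array 3 was the highest. The ratio was -0.94, -0.43 and -1.84, or -1.07 ± 0.71 (adjusted p = 0.160; 95% interval -1.90 to -0.24). Of all kept probes, 3.79% had a mean ratio as low. Without replicate 2 it was called at -1.39, as were 7186 of the 25494 kept probes, from arrays that both carry the mutant in Cy3. Without replicate 3 the ratio was -0.69 (adjusted p = 0.547).

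Of the imprinted pair, Igf2r was called and Igf2 was not. Igf2r fell, with levels of 11.07, 11.28 and 11.45 in the mutant against 13.02, 14.07 and 13.30 in wild type. Its ratio was -1.94, -2.79 and -1.85, or -2.20 ± 0.52 (4.58-fold lower, adjusted p = 0.0392). That call was lost without replicate 1 (-2.32, adjusted p = 0.175), without replicate 3 (-2.37, adjusted p = 0.113) and without the background limit (-2.11, adjusted p = 0.166). It was also lost without the filter on dim probes (adjusted p = 0.0667) and with the log2 values deposited by the authors (-2.18, adjusted p = 0.0549). Igf2 was at levels of 13.62, 12.66 and 11.52 in the mutant and 10.56, 10.24 and 10.65 in wild type, so the groups did not overlap and the mutant RNAs spread most. Its ratio was 3.07, 2.42 and 0.87, or 2.12 ± 1.13, which did not pass (adjusted p = 0.0898). Without the background limit array 2 read 1.92 for Igf2. On array 3 the ratio of Igf2 was the lowest of the 3 and that of Igf1r the most negative.

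Igfbp3, the main carrier of IGFs in blood, rose in the mutant and was the member with the smallest p. The probe at 1882 was at a level of 10.71, 11.52 and 11.37 in the mutant and 8.91, 10.15 and 10.18 in wild type. No mutant level was as low as any wild-type level, and array 1 was the lowest in both genotypes. The ratio was 1.80, 1.37 and 1.19, or 1.45 ± 0.32 (2.74-fold, adjusted p = 0.0489; 95% interval 0.90 to 2.01). It was at least 2-fold higher on all 3 arrays, which held for 3.13% of kept probes, and for 4.26% in either direction. No other member did so. The call lies at the threshold. It held under 7 of 18 alternative settings. These include a threshold of 0.1 on the same fit, where the call could not be lost. They also include the fit without replicate 2, where dye and genotype are not separated. The call was lost under 11, where the ratio stayed between 1.17 and 1.59, among them without replicate 1 (1.28, adjusted p = 0.339), without replicate 3 (1.59, adjusted p = 0.162) and without the background limit (1.33, adjusted p = 0.203).

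The other Igfbp3 probe, at 1389, was well above background in the mutant on 2 arrays and in wild type on none, and was not tested. Its levels were 6.51, 6.54 and 6.55 in the mutant and 6.34, 6.59 and 6.35 in wild type, near the lowest measured level. It gives no reading of a change. The genes whose 3 array ratios lay nearest to those of Igfbp3 by Euclidean distance included Cit (0.045) and Espn (0.069). With 3 arrays this is a match of 3 numbers, and 10 named genes lay within 0.2.

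Igfbp4, which binds both ligands and is cut by the protease Pappa, was higher in the mutant on every array and was not called. Its probe (mm9 chromosome 11, 98913334 to 98913393) was at 12.27, 12.04 and 11.28 in the mutant and 10.70, 11.76 and 10.70 in wild type. The groups overlapped, since the wild-type RNA of array 2 was above the mutant RNA of array 3. The ratio was 1.57, 0.28 and 0.59, or 0.81 ± 0.68 (adjusted p = 0.234), and the mean without replicate 1 was 0.43 (adjusted p = 0.977). Igfbp2, a binding protein abundant in embryonic tissues, was lower by both probes, with neither called. The probe at 958 read -1.37, -0.35 and -0.42, or -0.71 ± 0.57 (adjusted p = 0.242), and the probe at 1094 read -1.26, -0.25 and -0.46, or -0.66 ± 0.53 (adjusted p = 0.258). The probes do not overlap, and their readings lay close to each other on every array. Both were most negative on array 1, and without replicate 1 the means were -0.38 at 958 and -0.36 at 1094. Levels at 1094 were 14.18, 14.80 and 14.84 in the mutant and 15.44, 15.05 and 15.30 in wild type, without overlap. Levels at 958 were 13.67, 13.79 and 14.36 in the mutant and 15.04, 14.14 and 14.78 in wild type, and these overlapped.

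Igfbp1 and Igfbp5 changed sign between arrays. Igfbp1 (mm9 chromosome 11, 7102442 to 7102501) was at 14.87, 14.07 and 11.60 in the mutant and 13.32, 13.27 and 13.54 in wild type. The wild-type RNAs lay close together, and the mutant RNAs lay on both sides of them, with array 3 lowest. Its ratio was 1.54, 0.80 and -1.93, or 0.14 ± 1.83 (adjusted p = 0.939; 95% interval -1.70 to 1.97). Igfbp5 (mm9 chromosome 1, 72904829 to 72904888), a binding protein of mesenchyme and muscle, was at 13.03, 14.27 and 13.19 in the mutant and 12.01, 12.27 and 14.16 in wild type. Here it was the wild-type RNA of array 3 that stood above the others of its group. The ratio was 1.02, 2.00 and -0.97, or 0.68 ± 1.51 (adjusted p = 0.575; 95% interval -0.85 to 2.22). Without replicate 3 the mean was 1.17 for Igfbp1 and 1.51 for Igfbp5, with neither called (adjusted p = 0.288 and 0.217). Without replicate 2 Igfbp5 was at 0.02, and without replicate 1 at 0.51.

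**Figure D3:**
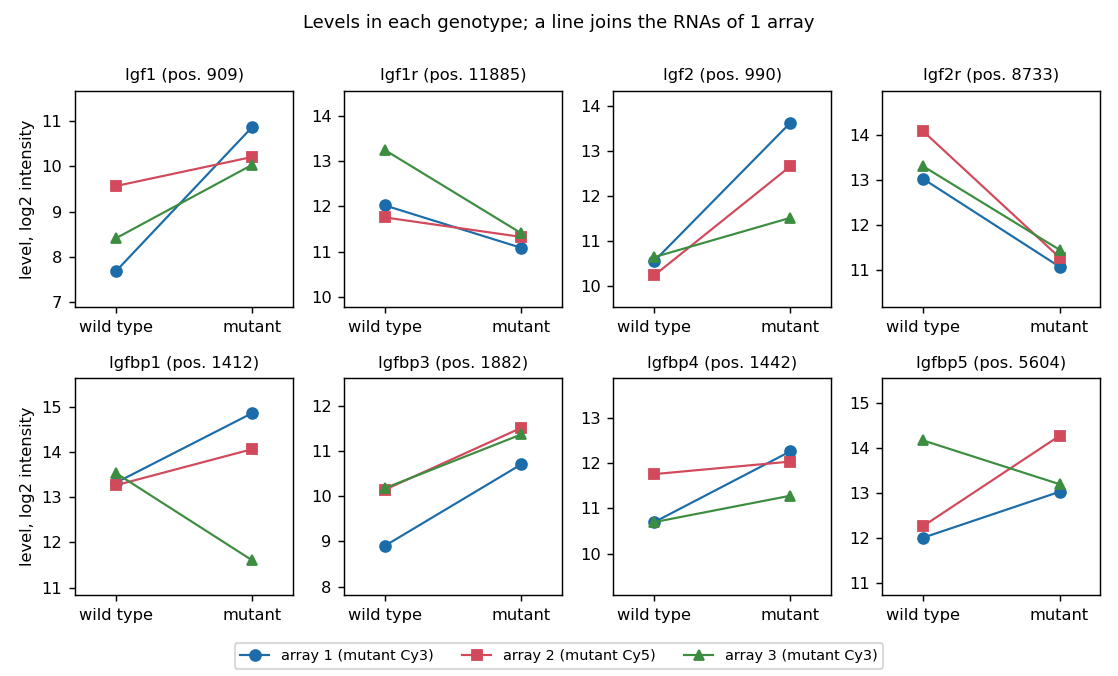
Normalised level as log2 intensity (vertical axis, the same span in each panel) in wild type and mutant (horizontal axis) for 6 members, Igf2 and Igf2r, with a line joining the RNAs of 1 array. Lines of Igfbp3 run upward and lines of Igf2r downward on all arrays, while array 3 runs against the others for Igfbp1 and Igfbp5.

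Array 3 also differed from the others in markers. The median ratio of the 8 pluripotency genes was 0.81 there and negative on arrays 1 and 2. Their normalised levels were turned back from log2 and summed over the brightest kept probe of each gene. These sums ranged from 22801 to 204995 over the mutant RNAs and from 90909 to 237590 over the wild-type RNAs. The mesenchyme genes, 3 of 8 called higher against 1.89% of all genes tested, summed to between 189567 and 225876 in the mutant and between 52223 and 103137 in wild type. The visceral endoderm genes, 4 of 14 called higher against the same 1.89%, summed to between 498266 and 837481 in the mutant and between 83464 and 243863 in wild type. Lrp2, an endocytic receptor in that list named here after its values were seen, was lower on all 3 arrays (-0.31, -0.76 and -0.80) and not called. Also named after their values were seen, Pdgfra of the mesenchyme list (0.55, -0.58 and -0.44) and Cdh5 of the endothelium list (0.43, -0.28 and -0.22) had means below 0. Neither was called, and Vim of the mesenchyme list read -0.68 on array 3. The medians of the mesenchyme, visceral endoderm, cardiac, endothelium and primitive blood lists were all above 0 on every array, with 3 of 8 cardiac, 2 of 8 endothelium and 0 of 6 blood genes called higher (3 blood genes had an unadjusted p under 0.05 in limma). Igf2, Igfbp3, Igfbp4 and the Igf1 probes at 889, 909 and 6909 were also higher on every array. The part of these cell types in the ratios of the IGF genes was not tested.

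Igfbp6, a binding protein that prefers IGF2, was at a level of 8.86, 8.99 and 9.06 in the mutant and 9.87, 9.33 and 8.82 in wild type. The mutant RNAs lay close together, and the groups overlapped. Its ratio was -1.01, -0.34 and 0.24, or -0.37 ± 0.63 (adjusted p = 0.538), and -0.050 without replicate 1. Without the background limit array 2 read -0.10 for Igfbp6. Igfbp7, a related secreted protein that binds IGFs weakly, was not tested, because its probe was well above background on 2 arrays in the mutant and 1 in wild type. It read 0.30, -0.98 and 0.62 from spot intensities of 55 to 175 units, and without the background limit array 2 read -0.070.

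**Figure D4:**
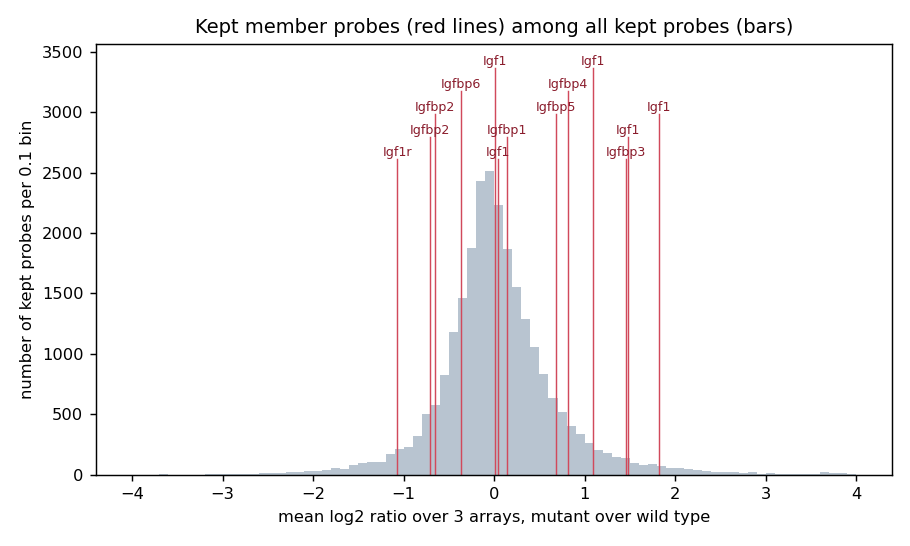
Number of kept probes (vertical axis) by mean log2 ratio of mutant over wild type in bins of 0.1 (horizontal axis, cut at -4 and 4), with a red line for each of the 13 kept member probes. The members run from -1.07 for Igf1r to 1.82 for an Igf1 probe.

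The other genes of the pathway were read by the brightest kept probe of each, with 67 of 70 genes on the array tested. One rose and 1 fell, against 2.54% called in either direction among 19684 genes, 1.89% higher and 0.64% lower, and the median was 0.13, against -0.01 over those genes. The one that fell was Igf2r, and the one that rose was Igf2bp1, which binds the Igf2 messenger RNA, at 2.18, 1.41 and 1.84, or 1.81 ± 0.39 (adjusted p = 0.0417). The Igf2bp1 call was lost without replicate 1 (1.63, adjusted p = 0.247), without replicate 3 (1.80, adjusted p = 0.156) and without the background limit (1.77, adjusted p = 0.167). It was also lost without the filter on dim probes (adjusted p = 0.0651) and with the log2 values deposited by the authors (1.66, adjusted p = 0.0553). Among 5 tested ligand and receptor genes Igf2r alone was called.

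None of the 10 genes for the ternary complex, the proteases of binding proteins and their inhibitors was called in limma, while 3 had an unadjusted p under 0.05, which 21% of all kept probes reached. The smallest p there was that of Mmp2, a matrix metalloproteinase, at 0.67 ± 0.21 (adjusted p = 0.152). None of 7 proteins related to the binding proteins was called (3 with an unadjusted p under 0.05, against the same 21%). Wisp1, a matricellular protein of the CCN family, was at 2.95 ± 1.17 (adjusted p = 0.0549) and read 3.37, 3.86 and 1.62. None of 10 receptor adaptors was called (2 unadjusted), with Irs2, a docking protein of the insulin and IGF receptors, at 1.51 ± 0.42 (adjusted p = 0.0540).

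None of 24 genes of the PI3K, AKT and mTOR branch was called (3 unadjusted). The kinase gene Gsk3b, an AKT substrate, was at 1.83 ± 0.57 (adjusted p = 0.0508). None of 9 genes of the RAS and MAPK branch was called (1 unadjusted), and Nras was at -0.78 ± 0.18 (adjusted p = 0.114). Median ratios were 0.23 in the PI3K branch and 0.06 in the RAS branch, and on array 2 the PI3K branch had a median of -0.14, against 0.51 and 0.43 on arrays 1 and 3.

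**Figure D5:**
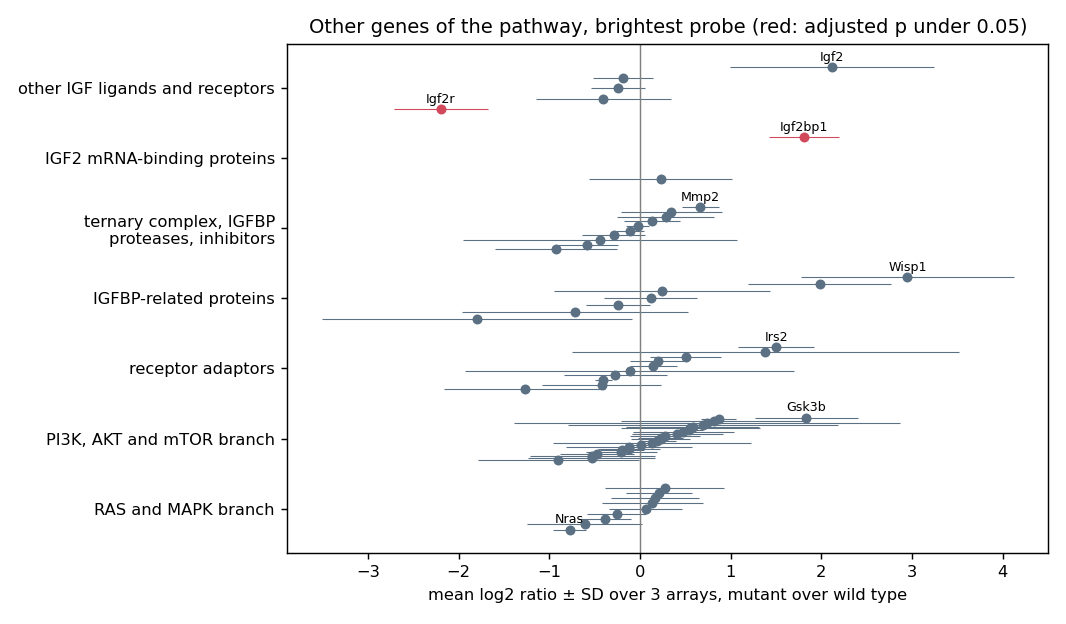
Mean log2 ratio of mutant over wild type with SD over 3 arrays (horizontal axis) for the 67 tested genes in 7 groups of the pathway (vertical axis), red where the adjusted p was under 0.05. Igf2r at -2.20 and Igf2bp1 at 1.81 are the 2 red points, and Wisp1 at 2.95 has the highest mean.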

How the data were processed

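The deposited scanner files hold spot and background brightness as intensity and a log10 ratio of red over green, made with Agilent Feature Extraction 10.7.3.1 on an mm9 grid, per the file headers. A table of log2 values deposited by the authors served as an alternative; limma is named in the submitters' processing notes. Set against the scanner's ratio at 10742 bright spots, the 3 columns of that table gave slopes of 0.910, 0.932 and 0.974 in the direction of mutant divided by wild type, with column medians of -0.01, 0.02 and -0.01, and how it was centred is unknown.

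In R 4.3.3 with limma 3.58.1, local background was limited to 100 units, and intensities were corrected with normexp (offset 50) and normalised by loess within arrays, in which control spots had no weight. Spots marked as controls or outliers were then removed. Ratios were turned by the labels' dyes and tested against 0 with lmFit and eBayes (4.81 degrees of freedom), adjusted over 25494 probes. Levels were taken after loess and Aquantile scaling. Median spot intensity was 150 to 288 units, 64.8% to 76.0% of spots were well above background, and 0 were saturated. The number of arrays, 3, limits the precision. Array 2 alone has the dyes exchanged, so a dye effect does not cancel.

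Members, gene lists, the background limit and the rule for named genes were chosen with earlier results of these data known. The rule takes all member, Igf2, Igf2r and Dido1 probes, the called genes of each pathway list or else the one of smallest p, and the 3 genes nearest to the member of smallest p, of which 1 is not reported here. Tested on simulated data, the fit recovered the size of planted changes, but these did not pass the adjusted threshold. Few probes were changed there, while on the arrays 21% of kept probes had an unadjusted p under 0.05 in limma. The share of real changes that the fit misses therefore cannot be read from the simulation. A probe that was not called may still differ.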

Additional observations from a re-analysis of the deposited data

How the results depend on the processing

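The count of called probes, 664, was 1139 with an offset of 16, 1315 with the scanner's log ratio, 1033 with an intensity trend, 3900 with a dye term, 327 with the brightest probe per gene, 261 with the mean of a gene's probes and 1945 at a threshold of 0.1. In limma it was 0 without the background limit (3984 at an unadjusted p under 0.05), without a filter (6665) and with the authors' deposited values (5201), and between 0 and 7186 with 1 replicate left out. It was 0 without replicate 1 (2270 unadjusted) or 3 (3166) and 7186 without replicate 2, where dye and genotype are not separated.

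The count of called members, 1, was 0 without the background limit, at a limit of 200 units, without background correction, with the scanner's log ratio, scaling between arrays, no filter, the brightest probe, the mean of a gene's probes and the authors' deposited values, with 5 to 8 members at an unadjusted p under 0.05 for probes and 4 for genes. Over all features such a p was reached by 3984 to 5635 of 25494 probes, 6665 of 39374 without a filter, and 3916 and 4027 of 19684 genes. The called members were 3 with a dye term and 2 at a threshold of 0.1. With 1 replicate left out they were between 0 and 5 (0 without replicate 1 or 3, 5 without replicate 2). The count of called pathway genes, 2, was 0 without the background limit, without a filter and with the authors' deposited values, 6 with an offset of 16, 4 with a filter on both genotypes, 4 with the mean of a gene's probes, 6 with an intensity trend, 11 with a dye term, 8 at a threshold of 0.1 and between 0 and 23 with 1 replicate left out. Of all 25494 kept probes, 3900 were called with a dye term and 7186 without replicate 2. Those settings called 11 and 23 of 67 pathway genes. The repeats on pathway genes were added after seeing the data. The causes were not tested.

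Signs turned for probes near 0. The Igf1 probe at 1027 read -0.12 without the background limit, -0.03 with the scanner's log ratio, and between -0.24 (without replicate 2) and 0.22 with 1 replicate left out. The Igf1 probe at 3252 read -0.082 without the limit and between -0.14 (without replicate 2) and 0.15 with 1 replicate left out. Igfbp1 read between -0.57 (without replicate 1) and 1.17, and -0.20 without replicate 2. No called value turned, and the alternatives run turned no other tested member probe. The dimmest probes, those of Igfbp7 and Igfbp3 at 1389, gave no test.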
